A study of Mus musculus with 36 samples.

Results

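The experiment described here is the response of the lung to ovalbumin (OVA) in KitWsh mice that carried engrafted mast cells, called KitWsh_MC. Its members are 7 of the 36 lung arrays of the series, chosen by their titles, 4 from OVA-challenged and 3 from saline-treated (PBS) mice. All were female C57BL/6 mice with the sash mutation at Kit, and both groups had the engraftment code MC, which the labels do not spell out and which is read as mast cells of wild-type mice. OVA mice were sensitised by 3 intraperitoneal injections (day 1, day 4 and day 7), each of 50 µg OVA given in a volume of 0.1 ml. From day 12 they were challenged weekly through the nose with 20 µg OVA in a volume of 30 µl, over 9 weeks. PBS mice had the same schedule without OVA. The responses were set against those of KitWsh mice without an engraftment (4 OVA and 3 PBS arrays) and of C57BL/6 wild-type (WT) mice (4 OVA and 4 PBS arrays), which had the same schedule. The labels give no age in numbers and do not say that each array is a separate animal, and the spread behind each p-value may be technical. They give neither the number nor the route of the engrafted cells, nor the time between the last challenge and collection of the lungs.

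Mast cells are tissue-resident cells that bind IgE through the receptor FcεRI and, when antigen crosslinks it, release granules with histamine and proteases and then make lipid mediators and cytokines. Their growth and survival need the receptor Kit, whose expression the sash mutation disrupts, so that sash mice lack mast cells and can be given cultured ones. The mutation also acts on Kit in other cells, which the engraftment does not repair. In the lung, allergen challenge is known to induce mucus-making goblet cells, eosinophil chemokines and macrophage products that depend on the type 2 cytokines IL-4 and IL-13.

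Each array gives 1 log2 intensity per gene, and values are given in the order of the replicates. Lung markers were present on all 7 arrays: the surfactant gene Sftpc lay between 15.03 and 15.48 and the club cell secretoglobin Scgb1a1 between 15.38 and 15.79. RNA quality differed on 1 array. The 3′ minus 5′ difference of the beta-actin control, which grows as RNA breaks down, was 2.33, 6.23, 2.21 and 2.61 in OVA lungs, against 3.02, 3.41 and 2.33 in PBS lungs. The GAPDH control gave 2.52, 6.77, 2.74 and 2.19 in OVA lungs, against 2.93, 3.57 and 2.13 in PBS lungs. OVA array 2 stood apart in both, and results are given with and without it.

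OVA and PBS lungs differed in 594 of the 11062 genes tested (5.37%), 432 higher (3.91%) and 162 lower (1.46%) in OVA, by limma at an adjusted p under 0.05, which is what "called", "rose" and "fell" mean below. A gene was tested if it passed a log2 value of 5 on at least 3 of the 7 arrays. The median log2 difference of all tested genes was 0.01. Without OVA array 2, over the same genes, 990 were called (8.95%), 700 higher (6.33%) and 290 lower (2.62%). They included 590 of the 594, while 4 were lost, 400 were gained and none of the 594 changed sign. The sizes hardly moved, with a median ratio of 0.991 of the change without that array to the change with it. The count also depended on other single arrays: it was 297 without OVA array 1, 203 without PBS array 1, 197 without PBS array 2 and 156 without PBS array 3. Of the 594 genes, 139 were called whichever of the 7 arrays was left out. Among these were all 15 genes named for the largest increases but only Fabp1, Bex2, Pon1, Igfbp3 and Slc38a4 of the 15 named for the largest decreases.

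**Figure D1:**
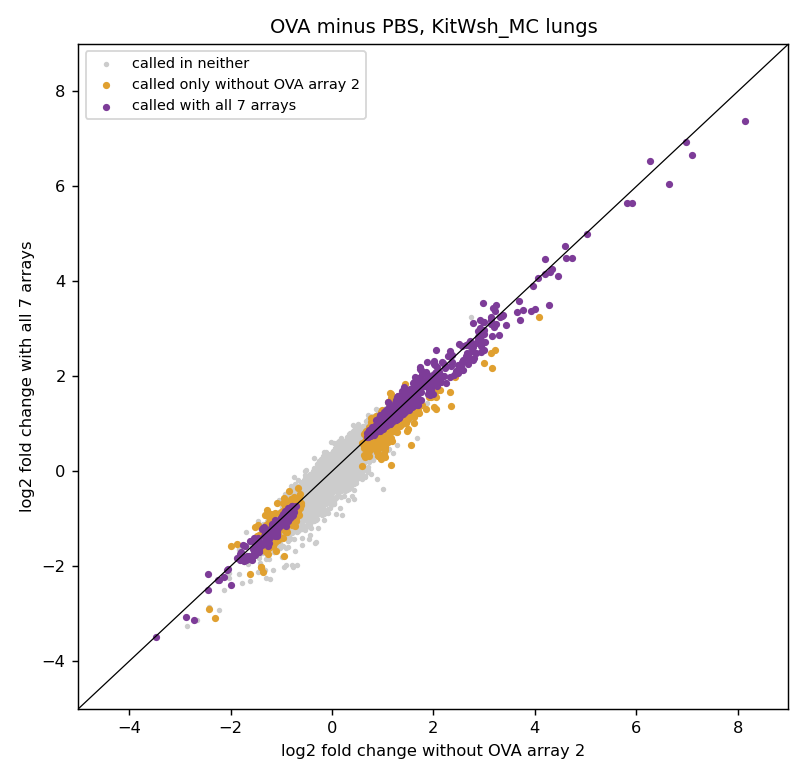
Each point is 1 of the 11062 tested genes, with its OVA minus PBS log2 fold change without OVA array 2 on the horizontal axis and with all 7 arrays on the vertical axis, and the line marks equality. The 594 genes called with all 7 arrays (purple) lie along the line, and the 400 gained without array 2 (orange) lie mostly at smaller changes.

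The granule protease transcripts Cma1 and Cpa3 rose, while 10 of the 18 listed mast cell genes on the array did not pass the filter. Cma1, the mast cell chymase, measured 6.86, 7.93, 7.31 and 7.81 in OVA lungs, against 5.03, 2.97 and 4.97 in PBS lungs, a log2 fold change of 3.16 ± 0.51 (standard error, adjusted p = 0.0104). Cpa3, the mast cell carboxypeptidase, measured 5.36, 6.16, 6.30 and 7.39 in OVA lungs, against 3.79, 3.18 and 3.43 in PBS lungs, a change of 2.83 ± 0.42 (adjusted p = 0.00718), at least 2.46-fold. "At least" marks a fold of the higher group's mean against log2 5, given where the lower group had no array above 5. All 4 OVA arrays lay above all 3 PBS arrays for both genes, as for 12.6% of all tested genes. Both calls held whichever array was left out. With no filter on low values, which tests more genes, neither was called (adjusted p = 0.0821 for Cma1 and 0.063 for Cpa3). In whole lung, more cells of a type and more RNA per cell cannot be told apart.

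The other mast cell genes showed no call. Of 18 listed genes on the array 8 passed the filter, 2 only through the OVA arrays, with a median change of 0.72, and only Cma1 and Cpa3 were called. The tryptase gene Tpsb2 did not pass it, with a mean of 4.88 ± 0.95 (SD, n = 4) in OVA lungs and 2.46 ± 0.10 (n = 3) in PBS lungs. Mcpt4, another granule protease, averaged 3.22 ± 0.94 in OVA lungs and 2.24 ± 0.03 in PBS lungs, and Tpsab1, Mcpt1, Mcpt2, Mrgprb1 and Hpgds lay at 2.53 or below on each of the 7 arrays. Mcpt8, also below the filter, counts in the eosinophil and basophil list too. It measured 2.68 on each OVA array, against 4.83, 2.68 and 4.57 in PBS lungs. Ms4a2 averaged 3.85 ± 0.62 in OVA and 3.91 ± 0.21 in PBS lungs, and Slc18a2 2.45 ± 0.11 and 2.43 ± 0.06. Srgn, which was tested, changed by −0.01. Fcer1a, the IgE-binding chain of FcεRI, changed by 1.32 ± 0.37 (adjusted p = 0.0836), and Hdc, which makes histamine, by 0.68 ± 0.23 (adjusted p = 0.136). Gata2 and Rab27b, which act in mast cell development and granule release, changed by −0.30 ± 0.19 and 0.24 ± 0.18 (adjusted p = 0.412 and 0.468). Kit itself measured 6.32, 5.61, 5.54 and 6.31 in OVA lungs, against 5.10, 5.34 and 5.07 in PBS lungs (change 0.77 ± 0.25, adjusted p = 0.122). Kit lay between 5.85 and 6.74 in KitWsh OVA lungs and 5.24 and 5.72 in KitWsh PBS lungs, so its levels with and without the engraftment overlapped. In WT PBS lungs Kit lay between 9.86 and 10.28. Of the WT OVA arrays 3 lay between 10.61 and 10.97, and the array labelled WT OVA 4 had 6.90, which goes against its label.

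**Figure D2:**
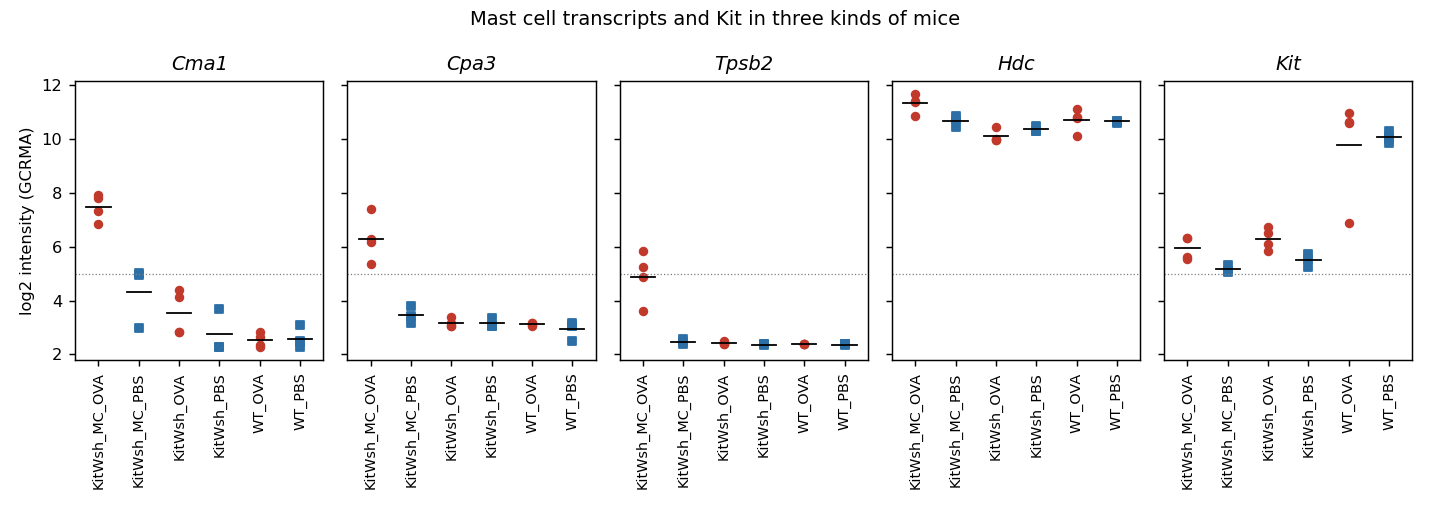
Log2 intensity of 4 mast cell transcripts and Kit on each array of KitWsh_MC, KitWsh and WT lungs, OVA in red and PBS in blue, with the mean as a line and log2 5 dotted. Cma1, Cpa3 and Tpsb2 have their highest values in the KitWsh_MC OVA column (means 7.48, 6.30 and 4.88), while Kit is near 10 in WT lungs except for 1 OVA array at 6.90.

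The rise of both proteases differed from the response of WT mice, and that of Cpa3 also from that of KitWsh mice. Cma1 changed by −0.05 and Cpa3 by 0.18 between WT OVA and PBS lungs. On the WT arrays Cma1 lay between 2.27 and 3.09 and Cpa3 between 2.51 and 3.18, all below the floor of the filter. The KitWsh_MC response was larger by 3.20 ± 0.56 for Cma1 (adjusted p = 0.0157) and by 2.66 ± 0.45 for Cpa3 (adjusted p = 0.0129). The difference for Cpa3 was not called without KitWsh_MC PBS array 2, and neither was called in a fit to all 36 arrays (adjusted p = 0.203 for Cma1). Against KitWsh, where Cpa3 changed by 0.02, its response was larger by 2.82 ± 0.47 (adjusted p = 0.00994), and for Cma1 the difference of 2.36 ± 0.77 was not called (adjusted p = 0.127). On the KitWsh arrays Cpa3 lay between 3.05 and 3.40 and Cma1 between 2.27 and 4.40, also below that floor. The sizes of the differences from both kinds of mice therefore rest on values near background, and no bound is given for them. The promoters of both genes are shown because they are the called mast cell genes. They run from 250 bases before to 50 after the start site (RefSeq, GRCm38.p6, minus strand, chr3:20242132-20242431 for Cpa3 and chr14:55944626-55944925 for Cma1), and capitals mark AGATAA or TGATAA, motifs read by GATA factors such as Gata2, searched on both strands.
Cpa3: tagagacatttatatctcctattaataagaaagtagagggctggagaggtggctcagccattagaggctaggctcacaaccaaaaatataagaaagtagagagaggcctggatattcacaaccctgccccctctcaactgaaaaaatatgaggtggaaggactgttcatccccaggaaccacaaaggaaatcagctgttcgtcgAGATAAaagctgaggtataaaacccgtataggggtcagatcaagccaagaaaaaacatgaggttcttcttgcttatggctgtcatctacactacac
Cma1: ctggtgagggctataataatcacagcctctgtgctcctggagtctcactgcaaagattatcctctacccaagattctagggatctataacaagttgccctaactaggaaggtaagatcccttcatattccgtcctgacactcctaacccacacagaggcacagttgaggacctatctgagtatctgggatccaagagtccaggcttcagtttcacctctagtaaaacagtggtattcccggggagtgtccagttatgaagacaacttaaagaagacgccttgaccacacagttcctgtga
The Cpa3 window holds AGATAA 46 bases before the start and the Cma1 window holds neither motif, while 18.6% of all 32851 promoter windows hold one. The 7 motifs searched and the windows shown were chosen with the expression values known, and a match is a description of letters, not of binding.

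Most tested genes of mucus-making goblet cells rose, and so did 5 genes of epithelial ion transport. Of 21 goblet cell genes on the array 14 passed the filter, 6 of them only through the OVA arrays. Of these 10 rose and none fell, 12 without OVA array 2, and their median change was 2.97. The lowest count was 6 of 14, without PBS array 2 or PBS array 3. Clca1, a secreted goblet cell product, measured 12.82, 10.12, 13.18 and 13.57 in OVA lungs, against 3.67, 6.40 and 5.05 in PBS lungs (7.39 ± 0.87, adjusted p = 0.00263). Slc26a4, the anion exchanger pendrin, measured 10.93, 10.98, 11.30 and 11.23 in OVA lungs, against 3.53, 4.83 and 4.17 in PBS lungs (6.93 ± 0.30, adjusted p = 9.47e-06), at least 69.1-fold. The groups lay far apart for both, and for Clca1 the array of degraded RNA was the lowest of its group.

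Agr2, a disulfide isomerase needed for mucin folding, measured 9.22, 8.34, 9.60 and 9.42 in OVA lungs, against 3.59, 3.33 and 3.59 in PBS lungs (5.64 ± 0.30, adjusted p = 2.83e-05), at least 17.7-fold. The mucin Muc5ac rose by 3.37 on the log2 scale, at least 3.22-fold, and the mucus component Fcgbp by 3.19, while the mucin Muc5b (1.57) was called only without OVA array 2. Of 17 genes of epithelial ion transport tested, 3 only through the OVA arrays, 5 rose and none fell, with a median of only 0.22. Beside Clca1 and Slc26a4 they were Fxyd4, which modulates the sodium pump (4.75 ± 0.30, at least 7.66-fold), the sodium-glucose transporter Slc5a1 (3.18 ± 0.27) and the potassium channel Kcnj15 (1.22 ± 0.19, although another of its probe sets gave −0.22). The chloride channel Cftr (−0.38) and the subunits of the epithelial sodium channel, Scnn1a, Scnn1b and Scnn1g (−0.43, −0.37 and −0.43), were not called.

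**Figure D3:**
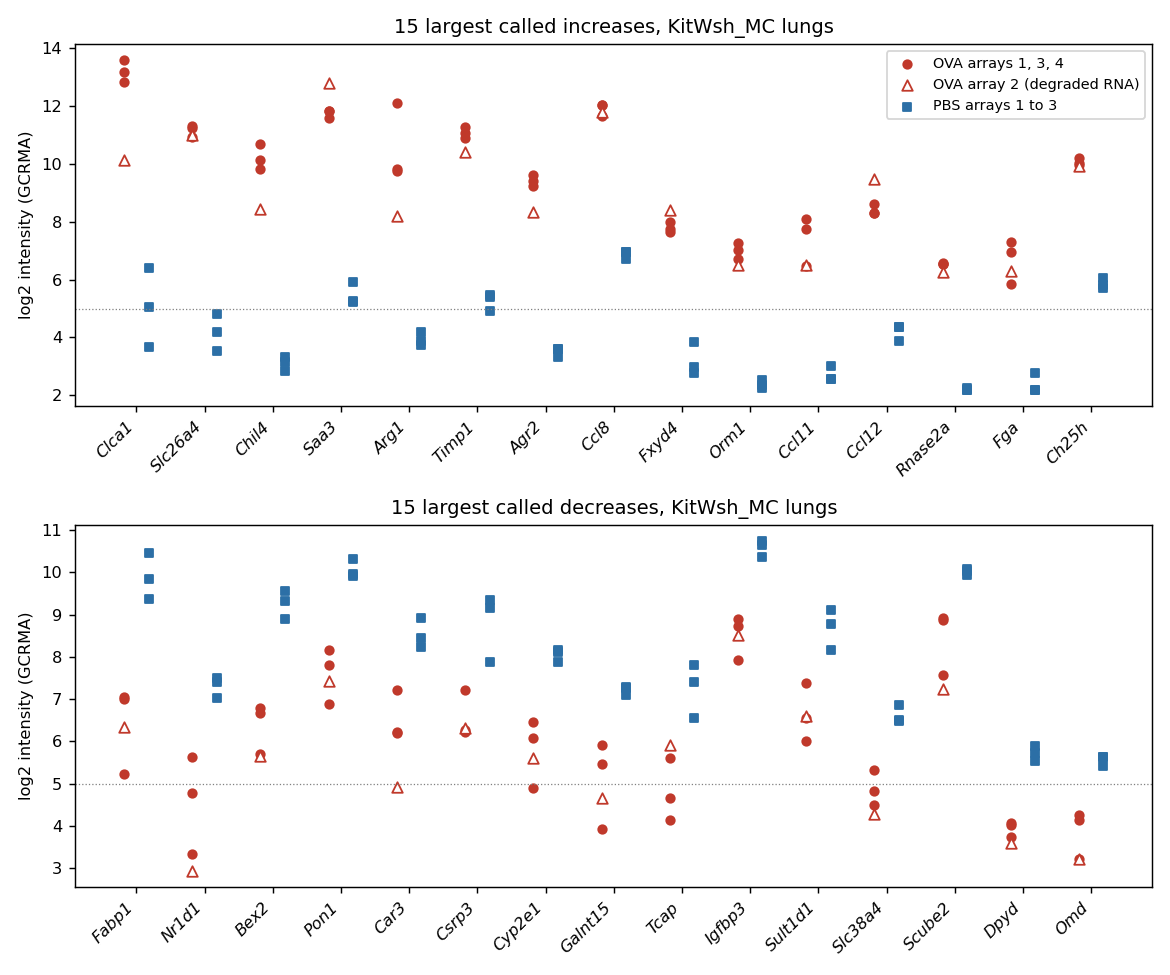
Log2 intensity on each of the 7 arrays for the 15 largest called increases (top) and decreases (bottom), with OVA to the left of PBS for each gene, OVA array 2 as an open triangle and log2 5 dotted. The 4 OVA arrays lie above all PBS arrays for each gene of the upper panel and below them for each gene of the lower panel. The groups do not overlap for any of the 594 called genes. Of all 11062 tested genes, 12.6% have OVA wholly above PBS and 10.2% wholly below. For 10 of the 15 increases every PBS array lies under log2 5.

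For those 10 genes the log2 change, and the order of the 15, rests on PBS values near background, and only the at least fold is a bound.

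Genes that depend on IL-4 and IL-13 rose as well. Of 23 listed genes on the array 16 passed the filter, 4 only through the OVA arrays, and 9 rose and none fell (10 without OVA array 2), with a median of 1.23 and between 5 and 10 called when 1 array was left out. Chil4, a chitinase-like protein, measured 10.14, 8.45, 9.82 and 10.68 in OVA lungs, against 2.85, 3.15 and 3.32 in PBS lungs (6.66 ± 0.46, adjusted p = 0.000131), at least 27.4-fold. Arg1, the arginase of macrophages activated by type 2 cytokines, measured 9.76, 8.20, 12.11 and 9.82 in OVA lungs, against 3.73, 4.18 and 3.87 in PBS lungs (6.05 ± 0.74, adjusted p = 0.00305), at least 31.3-fold. The Arg1 values of the OVA arrays spanned nearly 4 log2 units, and all stood above the PBS range.

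Ccl8, a chemokine that attracts monocytes and type 2 lymphocytes, measured 12.04, 11.80, 11.66 and 12.03 in OVA lungs, against 6.72, 6.96 and 6.97 in PBS lungs (5.01 ± 0.18, adjusted p = 9.47e-06). The eosinophil chemokine Ccl11 gained 4.49 ± 0.41 on the log2 scale (at least 4.62-fold, adjusted p = 0.000743), and the macrophage products Retnla and Chil3 rose by 2.90 ± 0.28 and 1.22 ± 0.21. The cytokines themselves were scarcely measured: of 17 type 2 cytokine and receptor genes on the array 8 were tested. Of these Il33, an epithelial alarmin, rose by 2.02 ± 0.20 (12.74 to 13.20 in OVA lungs, 10.84 to 11.27 in PBS lungs). The receptor chain genes Csf2rb2 and Csf2rb rose by 1.67 ± 0.35 and 1.11 ± 0.26. The call of Il33 held whichever array was left out, while those of Csf2rb2 and Csf2rb were both lost without OVA array 1 or any 1 PBS array, and that of Csf2rb also without OVA array 4. The receptor chains Il4ra (0.66) and Il13ra1 (−0.21) were not called.

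Beside Arg1, other genes of arginine and polyamine metabolism moved in both directions. Of 12 genes tested, 1 only through the OVA arrays, 5 rose and 1 fell, with a median of 0.55. Arg2, the mitochondrial arginase, rose by 1.57 ± 0.26, the spermidine synthase Srm by 1.28 ± 0.17, the arginine transporter Slc7a2 by 1.19 ± 0.24 and the antizyme inhibitor Azin1 by 0.87 ± 0.19. Azin2, the second antizyme inhibitor, fell by 1.00 on the log2 scale (SE 0.23, adjusted p = 0.0391). Odc1, the first enzyme of polyamine synthesis, was not called (0.14). Leaving out single arrays ended every one of these calls except those of Arg1 and Srm.

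Acute-phase genes and inflammatory chemokines rose together. Of 13 acute-phase genes tested, 3 of them passing only through the OVA arrays, 9 rose and none fell (11 without OVA array 2 and 5 without PBS array 2 or PBS array 3), and the median was 2.24. Saa3, the serum amyloid A of macrophages and epithelium, measured 11.82, 12.80, 11.81 and 11.57 in OVA lungs, against 5.27, 5.92 and 5.21 in PBS lungs (6.53 ± 0.32, adjusted p = 1.72e-05). Orm1, an orosomucoid, rose by 4.50 ± 0.22 (at least 3.66-fold), the fibrinogen chain gene Fga by 4.21 ± 0.36 (at least 3.02-fold) and the iron-sequestering lipocalin Lcn2 by 2.24 ± 0.27. Haptoglobin, Hp, did not follow (−0.03). With them rose genes of metal handling, 7 of 14 tested with none lower, among them the metallothioneins Mt2 (1.95 ± 0.18) and Mt1 (1.02 ± 0.19) and the zinc importer Slc39a14 (1.43 ± 0.21). Lcn2 and Ltf, the lactoferrin gene, count in both lists. The metal handling count was 3 without PBS array 3.

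Of 15 tested genes of the list that holds IL-6 and chemokines 11 rose and none fell, 7 passing the filter only through the OVA arrays, with a median of 2.10. The count was 11 without OVA array 2 over the same genes, and 7 when any 1 PBS array was left out. The monocyte chemokine Ccl12 measured 8.61, 9.48, 8.30 and 8.30 in OVA lungs, against 3.87, 4.35 and 4.37 in PBS lungs (4.47 ± 0.31, adjusted p = 0.000131), at least 12.7-fold. Il6, which drives the acute-phase response, measured 5.83, 6.54, 6.27 and 4.53 in OVA lungs, against 2.36 on each PBS array (3.43 ± 0.43, adjusted p = 0.00324), at least 1.73-fold, and passed the filter only with its 3 higher OVA arrays present. The neutrophil chemokine Cxcl1 measured 8.10, 7.88, 7.10 and 7.38 in OVA lungs, against 4.69, 4.66 and 4.60 in PBS lungs (2.96 ± 0.26, adjusted p = 0.000552), at least 6.13-fold. Ccl9 (2.65 ± 0.18) and Ccl3 (2.79 ± 0.23), both made by myeloid cells, rose as well, and Il1b (0.16) was not called.

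The promoters of Cxcl1 and Il6 are shown because both genes are known targets of the factor NF-κB. Capitals mark GGG and TTTCC parted by any 2 bases, on either strand (RefSeq, GRCm38.p6, plus strand, chr5:90890995-90891294 for Cxcl1 and chr5:30012864-30013163 for Il6).
Cxcl1: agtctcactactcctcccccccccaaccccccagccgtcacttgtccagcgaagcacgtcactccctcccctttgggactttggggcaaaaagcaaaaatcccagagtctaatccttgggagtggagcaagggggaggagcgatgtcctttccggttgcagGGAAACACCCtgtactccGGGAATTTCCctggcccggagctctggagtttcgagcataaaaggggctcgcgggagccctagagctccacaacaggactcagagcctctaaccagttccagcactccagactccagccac
Il6: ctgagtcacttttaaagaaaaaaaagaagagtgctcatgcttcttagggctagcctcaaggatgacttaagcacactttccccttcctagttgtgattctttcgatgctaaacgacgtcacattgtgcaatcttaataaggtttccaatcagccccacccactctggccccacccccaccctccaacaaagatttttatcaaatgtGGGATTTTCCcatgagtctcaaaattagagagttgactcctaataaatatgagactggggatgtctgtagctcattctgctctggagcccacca
The matches lie 89 (reverse strand) and 71 bases before the start of Cxcl1 and 44 bases before that of Il6. The motif is in 4 of the 12 windows found for the tested genes of this list (33.3%), in 4 of 13 windows of the acute-phase list (30.8%) and in 1.63% of all windows.

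Interferon-responsive genes rose in part. Of 21 tested, 2 only through the OVA arrays, 10 rose and none fell, with a median of 0.94 and 5 called without PBS array 2 or PBS array 3. The chemokines Cxcl9 and Cxcl10, which attract activated T cells, rose by 4.08 ± 0.24 and 2.53 ± 0.31, and the ubiquitin-like gene Ubd by 3.02 ± 0.35 (at least 4.17-fold). Cxcl9 measured 8.43, 8.52, 7.98 and 8.98 in OVA lungs, against 4.42, 4.46 and 4.33 in PBS lungs, at least 11.1-fold. The genes of antiviral proteins moved less: Oas1a rose by 1.29 ± 0.18, while Irf7 (0.50), Ifit3 (−0.27) and Ifit2 (−0.58) were not called. Ch25h, which makes 25-hydroxycholesterol in activated macrophages, measured 9.95, 9.94, 10.03 and 10.20 in OVA lungs, against 5.72, 6.04 and 5.83 in PBS lungs (4.16 ± 0.18, adjusted p = 9.47e-06).

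Macrophage genes rose widely, and OVA array 2 lay below the other OVA arrays in them. Of 25 monocyte and recruited macrophage genes tested, 1 only through the OVA arrays, 15 rose and none fell, with a median of 1.75. Without array 2 the count was 19. Their mean log2 level, over the 26 genes on the array, was 9.52, 8.27, 9.19 and 9.50 in OVA lungs, against 7.53, 7.47 and 7.53 in PBS lungs. The count was lowest, 7, without PBS array 3. Clec4n, the lectin receptor dectin-2, measured 9.41, 9.11, 9.27 and 9.54 in OVA lungs, against 6.39, 5.87 and 5.87 in PBS lungs (3.29 ± 0.21, adjusted p = 8.31e-05). Ms4a6d rose by 3.11 ± 0.23 and Ms4a7 by 2.41 ± 0.28, both membrane proteins of macrophages, and the elastase Mmp12 by 2.46 ± 0.29. Ccr2, the receptor of blood monocytes (−0.34), Cx3cr1 (−0.26) and Apoe (−0.42) were not called.

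The lysosomal genes depended on the degraded array. Of 19 tested only the cathepsins Ctsk (2.86 ± 0.51) and Ctsb (0.99 ± 0.22, although another of its probe sets gave −0.01) rose with all arrays, 9 rose without OVA array 2, and none was called when any 1 PBS array was left out. The mean of the list was 11.26, 10.14, 10.74 and 11.34 in OVA lungs, against 10.10, 10.12 and 10.21 in PBS lungs, so array 2 sat within the PBS range. Of 14 complement genes tested, 2 only through the OVA arrays, 3 rose with all arrays (Cfi, C1qc and C1qb), 8 without array 2, and 1 without PBS array 1 or PBS array 3. Cfi, the protease that inactivates C3b and C4b, measured 6.56, 6.34, 6.50 and 6.74 in OVA lungs, against 2.71, 2.71 and 2.50 in PBS lungs (3.89 ± 0.18, adjusted p = 1.17e-05), at least 2.90-fold.

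Genes of resident alveolar macrophages moved in both directions, 5 of 12 rising and 1 falling, but 2 and none when any 1 PBS array was left out. The scavenger receptor Marco rose by 2.64 ± 0.27, the proton pump subunit Atp6v0d2 by 2.52 ± 0.46 and the lipid carrier Fabp4 by 2.48 ± 0.37. Siglecf, the sialic acid lectin of alveolar macrophages and eosinophils, measured 5.96, 5.38, 5.05 and 5.75 in OVA lungs, against 6.86, 6.93 and 6.96 in PBS lungs (−1.38 ± 0.24, adjusted p = 0.0139), a call lost without any 1 PBS array. Of the 10 eosinophil and basophil genes on the array only 3 passed the filter, of which 1 rose and 1 (Siglecf) fell. Cd200r4 rose by 2.71 ± 0.22. The eosinophil genes Ccr3, Epx and Prg3 lay at 2.19 on each of the 7 arrays, and Il5ra at 2.23 or below. Rnase2a, of the eosinophil-associated ribonuclease family, is not in that list and is named for the size of its change. It measured 6.56, 6.28, 6.53 and 6.55 in OVA lungs, against 2.25, 2.19 and 2.19 in PBS lungs (4.27 ± 0.17), at least 2.79-fold.

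Neutrophil genes did not move as a group, with a median of −0.14 over 12 tested, 1 only through the OVA arrays. Cd177 (3.04 ± 0.24), Clec4e (2.35 ± 0.39) and Lrg1 (1.88 ± 0.39) rose, of which 1 was called without OVA array 4 or PBS array 3. The granule genes Camp (−1.40) and Ngp (−1.28) and the calprotectin gene S100a8 (−0.12) were not called. None of 12 T cell genes and none of 14 B cell genes tested was called, and their medians were 0.24 and 0.20. Another 8 of the 20 T cell genes on the array did not pass the filter. Of these, Ctla4 (4.36 to 5.68 in OVA lungs, 3.14 to 3.33 in PBS lungs) lay wholly higher in OVA lungs. So did Tnfrsf4 (4.47 to 6.40 against 3.52 to 4.25), Cd5 and Cd6, as did 12.6% of all tested genes. Cd4, Cd8b1, Foxp3 and Il2ra did not. Gzmk, a granzyme of T cells, was the only 1 of 8 cytotoxic lymphocyte genes called (1.55 ± 0.29), and not when any 1 PBS array was left out. Of these 8 genes 1 passed the filter only through the OVA arrays. Plasma cell genes rose in 5 of 14, led by Derl3 (2.09 ± 0.30), Eaf2 (1.95 ± 0.34) and Fkbp11 (1.80 ± 0.18). Of genes for protein folding in the endoplasmic reticulum 7 of 24 rose and none fell, 11 without OVA array 2 and 2 without PBS array 2 or PBS array 3. Creld2, in both lists, measured 11.86, 11.95, 12.15 and 11.83 in OVA lungs, against 10.49, 10.37 and 10.28 in PBS lungs (1.56 ± 0.17, adjusted p = 0.00173).

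Many genes of cell division rose. Of 39 on the array 28 passed the filter, 9 only through the OVA arrays, and 20 rose and none fell, with a median of 1.54. The count was 23 without OVA array 2, and it was lowest, 10, without PBS array 1. Their mean level over all 39 was 6.77, 6.57, 6.72 and 6.77 in OVA lungs, against 5.12, 5.43 and 5.37 in PBS lungs. Ccna2, cyclin A2, measured 7.45, 7.62, 7.46 and 7.53 in OVA lungs, against 4.03, 5.30 and 4.96 in PBS lungs (2.75 ± 0.29, adjusted p = 0.00144). Birc5, the survivin of the mitotic spindle, measured 8.23, 8.27, 8.13 and 8.17 in OVA lungs, against 5.16, 6.14 and 5.30 in PBS lungs (2.66 ± 0.25, adjusted p = 0.000829). The OVA arrays agreed closely for both genes and the PBS arrays spread more. Cdca8 (2.69 ± 0.26), the mitotic kinase Cdk1 (2.21 ± 0.24) and thymidine kinase Tk1 (1.92 ± 0.21) rose too, and Pcna (0.41), Rrm1 (0.55) and Mcm4 (0.30), all of DNA replication, were not called.

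The promoters of Cdk1 and of Ube2c, a ubiquitin-conjugating enzyme that works with the anaphase-promoting complex, are shown for the pair of motifs known from late cell cycle genes. Capitals mark TTTGAA or TTCGAA (the CHR element) and CCAAT, on either strand (RefSeq, GRCm38.p6, chr10:69352863-69353162 on the minus strand for Cdk1 and chr2:164769679-164769978 on the plus strand for Ube2c).
Cdk1: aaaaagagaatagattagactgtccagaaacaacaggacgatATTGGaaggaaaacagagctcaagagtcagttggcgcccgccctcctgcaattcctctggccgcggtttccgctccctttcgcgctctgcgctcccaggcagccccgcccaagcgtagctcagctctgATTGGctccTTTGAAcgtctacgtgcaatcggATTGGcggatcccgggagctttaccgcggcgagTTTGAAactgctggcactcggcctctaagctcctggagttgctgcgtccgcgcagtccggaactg
Ube2c: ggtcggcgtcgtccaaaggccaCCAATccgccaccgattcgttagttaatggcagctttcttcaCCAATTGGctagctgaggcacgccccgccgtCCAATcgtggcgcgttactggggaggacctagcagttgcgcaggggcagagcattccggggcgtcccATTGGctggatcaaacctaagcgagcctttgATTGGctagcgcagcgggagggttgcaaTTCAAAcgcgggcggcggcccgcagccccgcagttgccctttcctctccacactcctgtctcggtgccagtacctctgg
Cdk1 has TTTGAA 71 and 15 bases before its start with 3 CCAAT matches, and Ube2c has a reversed TTTGAA 29 bases before its start with 6 CCAAT matches, of which 2 overlap. Both motifs occur in 16 of the 28 windows found for the tested genes of this list (57.1%) and in 7.52% of all windows.

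Matrix genes were called in both directions, and the gene of a metalloprotease inhibitor was among the largest increases. Timp1, an inhibitor of metalloproteases, measured 11.06, 10.41, 11.28 and 10.90 in OVA lungs, against 4.90, 5.40 and 5.48 in PBS lungs (5.65 ± 0.25, adjusted p = 1.17e-05). The metalloprotease Mmp19 rose by 3.25 ± 0.36. In all, 5 of 15 genes of its list rose, 1 of the 15 tested only through the OVA arrays. The count was 3 without OVA array 1 or any 1 PBS array. Among all tested genes 3.91% rose and 1.46% fell. Of 29 collagen and matrix genes tested, 1 only through the OVA arrays, 2 rose and 2 fell, with a median of 0.03. These counts were 5 and 3 without OVA array 2, and 1 and 0 without PBS array 1 or PBS array 3. Tenascin C, Tnc, measured 7.37, 7.02, 8.94 and 8.09 in OVA lungs, against 4.85, 5.39 and 5.14 in PBS lungs (2.73 ± 0.42), and versican, Vcan, rose by 1.96 ± 0.18. Fibulin 2, Fbln2, and lumican, Lum, fell by 1.73 and 1.38 on the log2 scale. The fibrillar collagens Col1a1 (0.63), Col1a2 (0.12) and Col3a1 (0.60) were not called, nor was any of 13 smooth muscle genes, for which the count was 2 higher and 1 lower without OVA array 2. In eicosanoid metabolism 4 of 15 genes rose (none without PBS array 3), with 1 of the 15 tested only through the OVA arrays. Among the 4 were the thromboxane synthase Tbxas1 (1.68 ± 0.25) and the prostaglandin E synthase Ptges (1.25 ± 0.21). Of 12 tested genes of retinoid and xenobiotic metabolism, 1 only through the OVA arrays, 1 rose and 2 fell (Cyp2e1 and Fmo1, by 2.30 and 1.11 on the log2 scale), with a median of −0.27. Aldh1a3, which makes retinoic acid, rose by 3.49 ± 0.55 (at least 1.65-fold), with 1 OVA array at 3.99 and the others between 5.95 and 6.48, and 2.19 to 2.25 in PBS lungs. Its call was not kept without OVA array 1, OVA array 2, OVA array 3, PBS array 1 or PBS array 3.

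**Figure D4:**
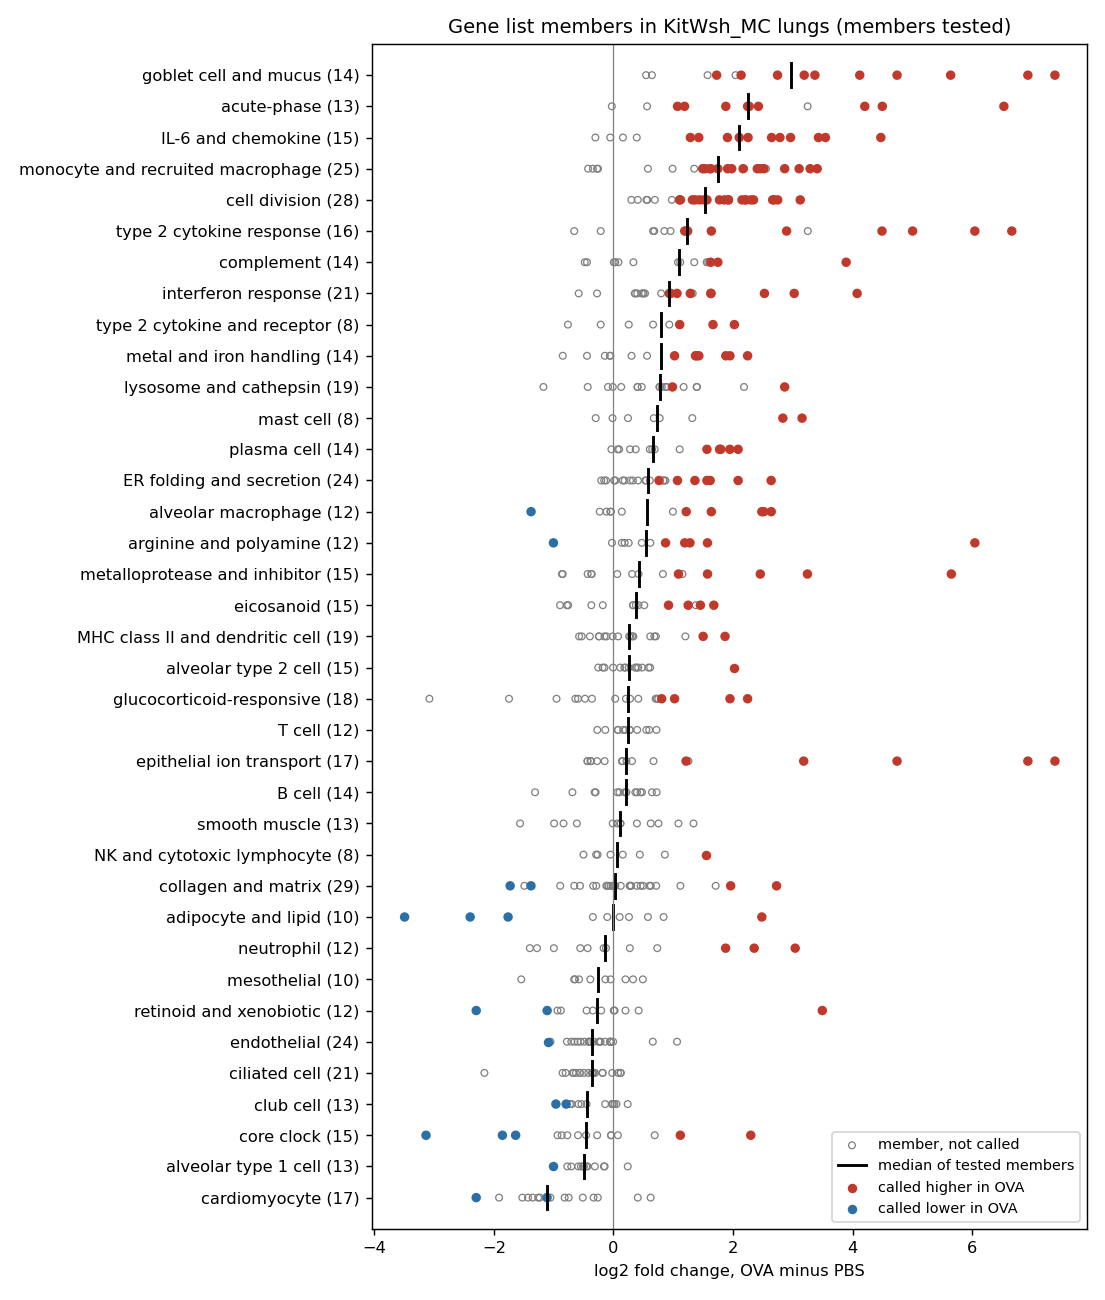
OVA minus PBS log2 fold change of each tested member of the gene lists with at least 5 tested members (number in brackets), called members in red (higher) or blue (lower), others as open circles, and the median as a bar. Goblet cell, acute-phase and chemokine lists have the highest medians (2.97, 2.24 and 2.10), and the cardiomyocyte list has the lowest (−1.10). In those 3 highest lists 6 of 14, 3 of 13 and 7 of 15 members passed the filter only through the OVA arrays. That route favours genes higher in OVA lungs, so the ranking is a description only.

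The genes that fell most were of several kinds. Fabp1, a fatty acid carrier, measured 6.99, 6.35, 5.24 and 7.06 in OVA lungs, against 10.47, 9.38 and 9.85 in PBS lungs (−3.49 ± 0.45, adjusted p = 0.00378). Bex2 measured 6.80, 5.66, 5.69 and 6.66 in OVA lungs, against 9.57, 8.90 and 9.32 in PBS lungs (−3.06 ± 0.34, adjusted p = 0.00173). The paraoxonase Pon1 fell by 2.49, carbonic anhydrase Car3 by 2.40, the cytochrome P450 Cyp2e1 by 2.30 and Igfbp3, which binds insulin-like growth factors, by 2.07 on the log2 scale. Smaller decreases among the 15 were those of Galnt15, Sult1d1, Slc38a4, Scube2, Dpyd and Omd, from −2.23 to −1.86.

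Of 17 tested heart muscle transcripts 2 were called, both lower. Csrp3, a protein of the muscle Z-disc, measured 6.26, 6.31, 6.23 and 7.22 in OVA lungs, against 9.35, 7.89 and 9.17 in PBS lungs (−2.30 ± 0.39, adjusted p = 0.0131), and the troponin gene Tnnt2 fell by 1.11 on the log2 scale. These were the only calls among 17 tested cardiomyocyte genes, 2 lower, where 1.46% of all tested genes fell. The median of the 17 was −1.10, and 2 of them had a positive change. Without OVA array 2 the calls numbered 4, and none was made without PBS array 1 or PBS array 3. Over the 21 genes on the array the mean level was 6.50, 7.10, 6.16 and 7.03 in OVA lungs, against 7.81, 7.08 and 7.71 in PBS lungs, and the groups overlapped. Tcap, another muscle transcript, fell with them by 2.17. How much cardiac tissue each lung sample held was not tested. Of the lung's own cell types, 2 of 13 club cell genes fell (Cyp2f2 by 0.96 and Ces1d by 0.79), 1 of 13 alveolar type 1 genes (Akap5 by 1.01, while another of its probe sets gave 0.27) and 1 of 24 endothelial genes (Ednrb by 1.10). None of these 4 decreases was called when any 1 PBS array was left out. Without OVA array 2 the endothelial counts were 1 higher and 3 lower. Of 15 alveolar type 2 genes 1 rose and none fell. Counts this small are a description only, beside 1.46% lower and 3.91% higher among all tested genes. None of 21 ciliated cell genes and none of 10 mesothelial genes was called by limma with all arrays, and 2 mesothelial genes were lower without OVA array 2.

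Clock genes moved in both directions. Of 15 tested, 1 (Nfil3) only through the OVA arrays, 2 rose and 3 fell, and their median was −0.46. These counts were 2 and 5 without OVA array 2, 0 and 2 without OVA array 1 or OVA array 4, 0 and 3 without OVA array 3, and 1 and 1 without any 1 PBS array. Nfil3 did not pass the filter without OVA array 1, 3 or 4, and was not tested there. Nr1d1, the repressor REV-ERBα, measured 5.64, 2.94, 3.33 and 4.78 in OVA lungs, against 7.04, 7.49 and 7.40 in PBS lungs (−3.14 ± 0.59, adjusted p = 0.0201). Dbp measured 10.13, 9.56, 9.70 and 9.27 in OVA lungs, against 11.12, 11.85 and 11.59 in PBS lungs (−1.86 ± 0.26, adjusted p = 0.0058), and Hlf, a related activator, fell by 1.64 on the log2 scale. Nfil3, which represses the targets of Dbp and Hlf, measured 5.52, 4.59, 5.72 and 5.69 in OVA lungs, against 3.42, 2.58 and 3.25 in PBS lungs (2.30 ± 0.33, adjusted p = 0.00623), at least 1.30-fold, and Bhlhe40 rose by 1.12 ± 0.26. The period genes Per1 (−0.59), Per2 (0.07) and Per3 (−0.94) and Clock (−0.04), Cry1 (0.69), Cry2 (−0.77), Nr1d2 (−0.87), Tef (−0.46), Rora (−0.27) and Ciart (−0.04) were not called with all arrays. Only the call of Dbp held whichever array was left out. The hour at which lungs were taken is not in the labels, and its part in these differences was not tested.

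The response in KitWsh_MC mice was set against that of KitWsh mice without mast cells. It differed for 190 of 11300 genes (1.68%), 144 with a larger or more positive change in KitWsh_MC mice (1.27%) and 46 with a smaller or more negative one (0.407%). The median difference of all genes was 0.11, and once each array was centred, which brought it to 0.00, 60.4% of the calls were higher, against 75.8% as deposited. The count ran from 62 (without KitWsh_MC PBS array 2 or KitWsh PBS array 2) to 664 (without KitWsh_MC OVA array 3), and was 422 without OVA array 2. It was also 124 without KitWsh_MC OVA array 1, 64 and 63 without KitWsh_MC PBS arrays 1 and 3, 98 and 125 without KitWsh OVA arrays 2 and 3, and 84 and 65 without KitWsh PBS arrays 1 and 3. The beta-actin difference lay between 2.21 and 6.23 in KitWsh_MC OVA lungs and 2.33 and 3.41 in KitWsh_MC PBS lungs, against 1.29 to 2.62 in KitWsh OVA and 1.74 to 2.48 in KitWsh PBS lungs. With it as a covariate 533 genes were called.

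Among named genes the larger responses were led by Saa3, Arg1, Timp1, Orm1 and Slc26a4. Saa3 changed by 6.53 in KitWsh_MC mice and −0.33 in KitWsh mice (difference 6.86 ± 0.96, adjusted p = 0.00359). Arg1 changed by 6.05 in KitWsh_MC and 0.64 in KitWsh mice (5.41 ± 0.87, adjusted p = 0.00843), Timp1 by 5.65 and 0.56 (5.10 ± 0.52, adjusted p = 0.000247) and Orm1 by 4.50 and 0.07 (4.43 ± 0.30, adjusted p = 4.49e-06). Slc26a4 changed by 6.93 in KitWsh_MC and 2.59 in KitWsh mice (4.35 ± 0.96, adjusted p = 0.0366). For Arg1, Orm1 and Slc26a4, as for Ccl12, Il6 and Cxcl1 below, no KitWsh_MC PBS array lay above log2 5. The sizes of these differences therefore rest on values near background. Among the lists, 6 of 16 genes of the IL-6 and chemokine list differed (Ccl12, Il6, Cxcl1, Ccl3, Ccl4 and Osm), 4 of 17 ion transport genes (Slc26a4, Fxyd4, Slc5a1 and Kcnj15), 3 of 13 acute-phase genes (Saa3, Orm1 and Steap4) and 3 of 14 genes of metal handling (Mt2, Slc39a14 and Tfrc), all with the larger change in KitWsh_MC mice. Without OVA array 2 these counts were 3 of 13, 4 of 17, 5 of 13 and 3 of 14. The ion transport count was 2 without KitWsh_MC OVA array 1 or 4 or any 1 PBS array of either kind of mouse. The acute-phase and metal handling counts were 2 without most single PBS arrays, and the chemokine count was 4 without KitWsh_MC OVA array 1, 3 or 4, KitWsh_MC PBS array 1 or 2, or KitWsh PBS array 2 or 3. Of 16 metalloprotease and inhibitor genes 3 also had a larger response in KitWsh_MC mice, against 1.27% of all genes. That count was between 2 and 3 whichever array was left out.

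Of 14 goblet cell genes 3 had a larger response in KitWsh_MC than in KitWsh mice, namely Slc26a4, Fxyd4 and Agr2, of which the first 2 also count as ion transport genes. Agr2 changed by 5.64 in KitWsh_MC and 2.80 in KitWsh mice (2.84 ± 0.61, adjusted p = 0.0317). The count was 1 without KitWsh_MC OVA array 1 or 4 or any 1 PBS array of either kind of mouse.

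Other large increases occurred in KitWsh mice too. Clca1 changed by 7.39 in KitWsh_MC and 6.55 in KitWsh mice, Chil4 by 6.66 and 7.04, Retnla by 2.90 and 2.45, and Fer1l6, a ferlin listed with the goblet cell genes, by 4.12 and 4.03. None of these differences was called, which does not show that the responses were equal. Genes with a lower response in KitWsh_MC mice included Fabp1, which changed by −3.49 in KitWsh_MC and 0.69 in KitWsh mice (−4.19 ± 0.57, adjusted p = 0.00294), and Siglecf, by −1.38 and 1.30 (−2.68 ± 0.36, adjusted p = 0.00294). Ear3, of the eosinophil-associated ribonucleases, changed by −0.29 and 2.35 (−2.64 ± 0.60, adjusted p = 0.0425). The clock genes Nr1d1 (−4.13 ± 0.86, adjusted p = 0.0282) and Dbp (−2.79 ± 0.39, adjusted p = 0.00337) differed in the same direction, and their means changed by 1.00 and 0.94 in KitWsh mice. They were the 2 lower calls among 15 clock genes, beside 1 higher. Without OVA array 2 Nfil3 had a higher response (2.70 ± 0.40, adjusted p = 0.00447 by limma). The higher count was 0 or 1 whichever array was left out. Only 1 clock gene had a lower response without any 1 KitWsh_MC PBS array, KitWsh OVA array 2, 3 or 4, or KitWsh PBS array 2 or 3.

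**Figure D5:**
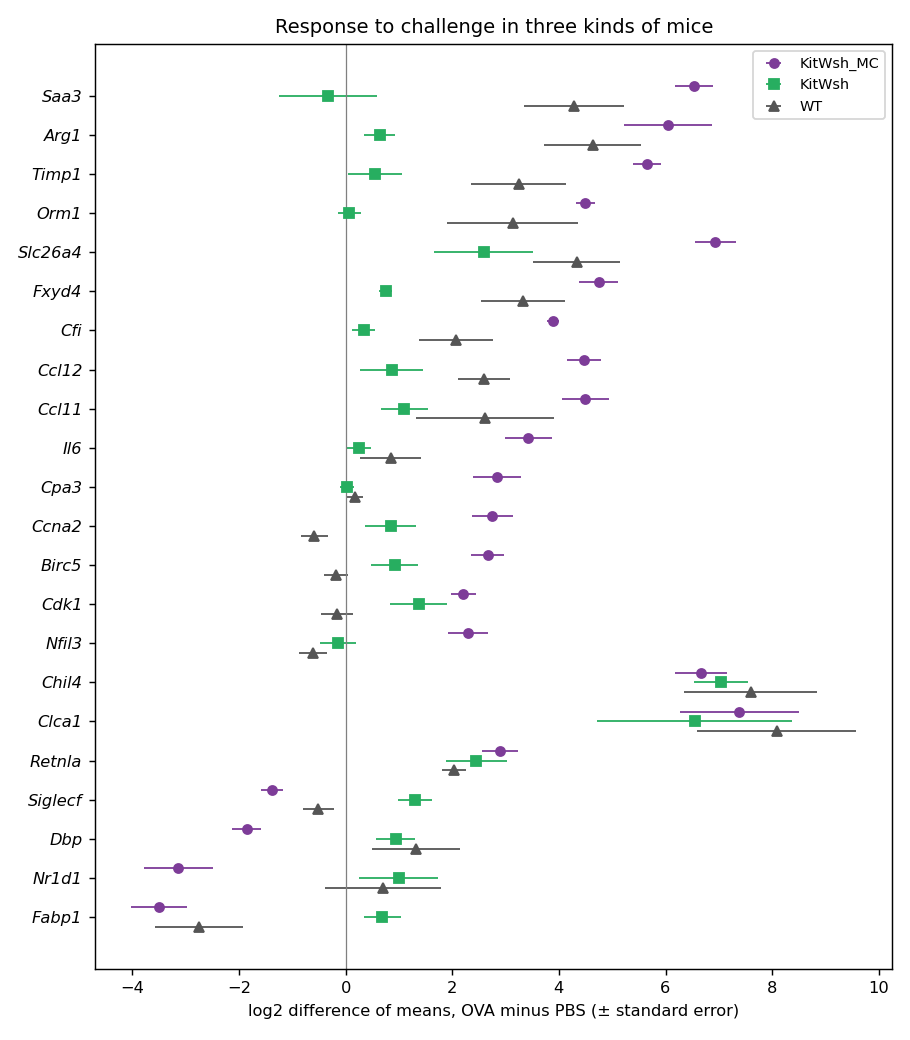
Difference of the OVA and PBS group means in KitWsh_MC, KitWsh and WT mice for 22 named genes, with bars of 1 standard error computed from the SDs of the groups. Saa3, Arg1, Timp1 and Orm1 lie between −0.33 and 0.64 in KitWsh mice and above 3 in the other kinds, Clca1 and Chil4 lie above 6 in all, and Ccna2, Birc5 and Cdk1 are below 0 in WT mice.

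Against WT mice fewer genes differed, 58 of 11287 (0.514%), 46 higher (0.408%) and 12 lower (0.106%) in their response in KitWsh_MC mice. The count was 81 without OVA array 2 and 74 (53 higher and 21 lower) without the array labelled WT OVA 4, whose Kit value goes against its label. It was 33 without WT OVA array 3 or WT PBS array 3, 36 without WT PBS array 1 or KitWsh_MC PBS array 2, and 34 without KitWsh_MC PBS array 3. The beta-actin difference was at most 1.46 in WT OVA and 1.77 in WT PBS lungs, below each of the 7 KitWsh_MC arrays, and 95 genes were called with it as a covariate.

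Cell division and the clock made up most of the named differences. Of 28 cell division genes 15 had a higher response in KitWsh_MC than in WT mice and none a lower one. That number was 16 without OVA array 2, 13 without WT OVA array 4, 15 with the beta-actin covariate and between 10 and 16 whichever array was left out. In one fit to all 36 arrays only 8 genes differed from WT mice, all higher, with Ccna2 and Npas2 among them. The list's median change was 1.54 in KitWsh_MC lungs and −0.16 in WT lungs. Ccna2 changed by 2.75 in KitWsh_MC and −0.58 in WT mice (3.33 ± 0.37, adjusted p = 0.00121). Aspm and Cep55, of the mitotic spindle and of cytokinesis, differed by 3.39 ± 0.47 and 3.29 ± 0.36 (adjusted p = 0.00443 and 0.00121). Against KitWsh mice, whose median was 0.60, only E2f1 of 29 differed (2.28 ± 0.40, adjusted p = 0.0137), 4 genes without OVA array 2 or OVA array 3 and 5 with the covariate.

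Of 17 clock genes 2 had a higher and 5 a lower response than in WT mice, and without WT OVA array 4 these were 3 and 10. The lower ones numbered 2 without KitWsh_MC PBS array 2 and 3 without KitWsh_MC PBS array 3, WT OVA array 3 or WT PBS array 1. In the fit to all 36 arrays none of the lower responses was called (adjusted p = 0.316 for Per1 and 0.288 for Hlf). Npas2, an activator of the clock that did not pass the filter on the 7 arrays alone, measured 3.64, 5.35, 5.40 and 4.88 in KitWsh_MC OVA lungs, against 3.86, 3.54 and 2.73 in KitWsh_MC PBS lungs. It changed by −2.39 in WT mice (difference 3.83 ± 0.53, adjusted p = 0.00443). Nfil3 differed by 2.91 ± 0.42 (adjusted p = 0.00543). Per1 changed by −0.59 in KitWsh_MC and 1.46 in WT mice (−2.05 ± 0.26, adjusted p = 0.0023), Per2 by 0.07 and 1.91 (−1.84 ± 0.32, adjusted p = 0.015), Hlf by −1.64 and 0.44 (−2.07 ± 0.40, adjusted p = 0.0274) and Tef by −0.46 and 1.33 (−1.79 ± 0.26, adjusted p = 0.00543). Klf15, a factor whose level follows the clock and glucocorticoids, changed by −1.80 and 0.14 (−1.94 ± 0.36, adjusted p = 0.0217). No goblet cell, acute-phase or ion transport gene differed from WT mice at an adjusted p under 0.05 by limma, and Saa3 (6.53 in KitWsh_MC and 4.28 in WT mice), Arg1 (6.05 and 4.63) and Slc26a4 (6.93 and 4.34) were among those not called.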

How the data were processed

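Lung RNA was hybridised to Affymetrix mouse expression arrays, and the deposited values of 45101 probe sets are log2 intensities made by the authors with GCRMA, per the submitters' processing notes which name no version. The method corrects for background by probe sequence and equalises quantiles between arrays, so that the lowest values depend on its model. Controls (64) were left out. GEO's platform annotation gave 34945 probe sets 1 symbol, 932 several and 9160 none here, and the probe set of highest mean over the 36 arrays stood for each of 18193 genes. Limma 3.58.1 in R 4.3.3 (lmFit and eBayes, two-sided, Benjamini-Hochberg over all tested genes) was fitted to the 7 arrays, and to 14 and 15 arrays for differences of the response. The labels name no batch, and precision is limited by how few arrays there are. The procedure was tested on simulated data.

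The experiment and the 39 gene lists were chosen with earlier results of these data known. The text names the 15 called genes with the largest increase and the 15 with the largest decrease, the 5 highest and 5 lowest called differences from each other kind of mouse, up to 5 called members of a list with the smallest adjusted p, any member called against the others, and the mast cell and clock lists. Of the called genes 15 with clone names were passed over when the largest were taken. Further list members given beside these, such as those not called, were chosen after their values were seen. Alternatives tried were other filters, probe set rules, normalisations, array weights, a trend, a fit to all 36 arrays, a beta-actin covariate and leaving out each array. One more, leaving out OVA array 2 with the tested genes held fixed, was added after seeing the data. Promoter windows are RefSeq's (GRCm38.p6).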

Additional observations from a re-analysis of the deposited data

Results flagged for a closer look

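Single arrays of the OVA group lay apart from the other 3 in 8 of 152 named genes, by the ratio of the gap to the range, and chance flags about 1 in 20 groups of 4. OVA array 2 differed in both RNA controls, with 3′ minus 5′ differences of 6.23 for beta-actin and 6.77 for GAPDH. It was also the low array for Lcn2 (12.30), Ms4a7 (7.93) and Rnase2a (6.28) and the high array for Tpm2 (11.71). OVA array 4 was high for Cd247 (6.14) and Csrp3 (7.22) and low for Akap5 (10.60), and OVA array 1 was low for Ubd (6.29).

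Responses that differed between kinds of mice by the interaction test of limma were taken from both ends. Against KitWsh mice the log2 response in KitWsh_MC mice was larger by 6.86 for Saa3, 5.41 for Arg1, 5.10 for Timp1, 4.43 for Orm1 and 4.35 for Slc26a4. It differed by −4.19 for Fabp1, −4.13 for Nr1d1, −2.79 for Dbp, −2.68 for Siglecf and −2.64 for Ear3. Against WT mice it was larger by 3.83 for Npas2, 3.39 for Aspm, 3.33 for Ccna2, 3.29 for Cep55 and 3.20 for Cma1, and it differed by −2.07 for Hlf, −2.05 for Per1, −1.94 for Klf15, −1.84 for Per2 and −1.79 for Tef. All 10 differences from WT mice kept their call without the array labelled WT OVA 4. The size of the difference for Cma1 rests on WT values near background. Those for Arg1, Orm1 and Slc26a4 rest on KitWsh_MC PBS values near background.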

How the results depend on the processing

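With all 7 arrays limma called 594 genes between OVA and PBS KitWsh_MC lungs. The count was 378 without the filter on low values, 2796 with array weights and 1281 with the beta-actin difference as a covariate, and 990 without OVA array 2 over the same genes. Leaving out 1 array at a time gave 156 to 977. It was 543 with a filter at log2 6, 502 with probe sets averaged per gene, 693 after quantile normalisation, 728 after centring, 654 with a trend and 723 in a fit to all 36 arrays, and the share of higher genes was 72.7% as deposited, 65.5% after quantile normalisation or centring and 58.8% in the fit to all arrays. Differences from KitWsh mice numbered 190 and ran from 62 to 664 without 1 array. They were 126 with probe sets averaged, 64 in the fit to all arrays, 1683 with array weights and 533 with the covariate, and the share of higher ones was 65.3% after quantile normalisation. Differences from WT mice numbered 58 and ran from 33 to 81, with 30, 8, 278 and 95 under the same 4 settings. The cause of these shifts was not tested. Of the 142 called results of named genes none reversed under any setting, and 65 kept their call under all settings in which the gene was tested. Some genes were not tested under every setting, such as the filter at log2 6. Of the recomputed values 349 lost their call while 2255 did not, most losses coming without a PBS array or in the unfiltered fit. Where only 2 PBS arrays remain, their spread is pooled with that of the OVA arrays. No paired analysis was possible because the labels number the arrays through the series and the groups share no replicate numbers.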
